A study of Mus musculus with 6 samples.

Results

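The Toll-like receptor genes are described here by where alveolar macrophages (AMs) carried H3K27ac, the acetylated form of lysine 27 on histone H3 and a chromatin mark of active promoters and enhancers. The 10 members were Tlr1, Tlr2, Tlr4, Tlr5 and Tlr6, whose products act at the cell surface, and Tlr3, Tlr7, Tlr8, Tlr9 and Tlr13, whose products act in endosomes, of 21755 protein-coding genes in the GENCODE M21 annotation of mm10. They were chosen by name, with earlier results of these data known. A peak was assigned to a member when it lay within 1 kb of one of its transcription start sites (TSSs, called promoter peaks), elsewhere in its gene body, or in the 50 kb flanking the gene on either side.

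Toll-like receptors recognise conserved molecules of microbes. Surface members bind lipoproteins, lipopolysaccharide and flagellin, and endosomal members bind nucleic acids that reach the endosome. Most signal through the adaptor MyD88 to NF-κB and interferon regulatory factors, and TLR3 signals through the adaptor TRIF, which TLR4 also uses. AMs live on the airway side of the alveolus and meet inhaled microbes first, and these receptors are among the means by which they sense them.

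H3K27ac was mapped by HT-ChIPmentation, in which chromatin on antibody-coated beads is tagged with sequencing adapters by a transposase, in AMs sorted from bronchoalveolar lavage of unperturbed wild-type C57BL/6J mice 9 weeks old. The Cell Signaling antibody was used for 2 libraries (replicates 1 and 2) and the Active Motif antibody for 1, and 3 input samples came with no peak list used here. The title of the Active Motif sample names H3 alone, and it was taken as H3K27ac from the series title. There was no treated or mutant group, so the comparisons are between members, between receptor classes and between libraries. The labels do not say whether the replicates came from separate mice, and antibody, run and read depth cannot be told apart, since each antibody had its own libraries. The paper describes 2 sonication set-ups for H3K27ac and does not say which antibody went with each. Shearing may therefore differ between libraries too.

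The lists held 56175 peaks in Cell Signaling replicate 1, 49139 in replicate 2 and 36364 in Active Motif, with median widths of 267, 629 and 341 bp in that order of libraries. Read depth is unknown from the lists. Fold enrichment is the caller's ratio of signal to input at the peak summit, and its scale differed between libraries, so ranks within a library are given beside it. All 8 AM marker genes had a promoter peak in every library, and none of the 6 T and NK cell markers had one in any. The share of all protein-coding genes with one was 47.9%, 48.9% and 40.9% in replicate 1, replicate 2 and Active Motif. Of the AM markers, only Marco (12.7, 12.0 and 7.99) and Car4 (13.8, 24.7 and 10.8) lay below the median fold of genes with a promoter peak in every library. Of the 6 airway epithelial markers, 5 had a promoter peak in replicate 1, at folds of 4.61 to 8.07, against 0 in the other libraries. Alveolar epithelial markers had 2 of 6 in replicate 1 and 0 elsewhere, neutrophil markers 2, 3 and 1 of 6, B cell markers 1, 1 and 0 of 6, and dendritic cell markers 2 of 6 in each, in the order replicate 1, replicate 2 and Active Motif. Some of these were strong, with Clec9a at 41.9, 30.9 and 3.43, Xcr1 at 22.7, 26.5 and 6.82 (both dendritic cell markers), and Ms4a1, a B cell marker, at 4.18-fold in replicate 1 and 41.2-fold in replicate 2. The part of such cells in the results was not tested.

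Most of the family was acetylated at its promoters, and the same 2 members were bare, with no peak past the caller's threshold, in every library. Tlr2, Tlr4, Tlr5, Tlr6, Tlr3, Tlr7, Tlr8 and Tlr13 had a promoter peak in all 3 libraries (8 of 10), and Tlr1 and Tlr9 had none in any. Across all protein-coding genes a promoter peak was present for 47.9% in Cell Signaling replicate 1, 48.9% in replicate 2, 40.9% in Active Motif and 40.8% in all 3. Surface and endosomal classes were alike in this count, with 4 of 5 members each.

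The promoter windows below show the DNA at 3 acetylated promoters (Tlr2, Tlr6 and Tlr8) and at the 2 that were bare (Tlr1 and Tlr9). RefSeq promoter windows of 300 bases (250 before and 50 after the start, build GRCm38.p6, on the strand of the gene) were given for 8 of the 10 members, and Tlr4 and Tlr7 were not matched. Capitals mark matches, on either strand, to PU.1 (GAGGAAGT), AP-1 (TGANTCA), NF-κB (GGGANTTTC), C/EBP (TTGCNNAA), ISRE (GAAANNGAA), a nuclear receptor core element (AGGTCA), RUNX (TGTGGT), an E-box (CACGTG) or a TATA box (TATAAA).
Tlr2, chr3:83841559-83841858, minus strand, acetylated: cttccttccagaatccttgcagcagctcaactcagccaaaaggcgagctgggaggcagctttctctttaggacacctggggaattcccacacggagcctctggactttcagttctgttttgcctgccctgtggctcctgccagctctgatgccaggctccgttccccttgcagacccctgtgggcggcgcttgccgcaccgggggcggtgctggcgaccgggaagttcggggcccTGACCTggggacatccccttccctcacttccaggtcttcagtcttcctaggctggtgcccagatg
Tlr6, chr5:64959999-64960298, minus strand, acetylated: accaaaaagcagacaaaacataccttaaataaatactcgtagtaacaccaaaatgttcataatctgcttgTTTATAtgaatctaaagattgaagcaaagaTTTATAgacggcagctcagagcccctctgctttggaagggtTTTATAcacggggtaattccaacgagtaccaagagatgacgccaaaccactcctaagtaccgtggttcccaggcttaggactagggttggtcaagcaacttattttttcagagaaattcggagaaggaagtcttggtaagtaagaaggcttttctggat
Tlr8, chrX:167264280-167264579, minus strand, acetylated: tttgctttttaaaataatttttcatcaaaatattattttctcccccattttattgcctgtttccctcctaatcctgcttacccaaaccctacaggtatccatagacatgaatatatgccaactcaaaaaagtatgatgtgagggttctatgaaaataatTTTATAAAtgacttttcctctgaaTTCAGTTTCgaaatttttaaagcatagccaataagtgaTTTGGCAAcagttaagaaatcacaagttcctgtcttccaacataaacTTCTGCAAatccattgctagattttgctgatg
Tlr1, chr5:64933509-64933808, minus strand, bare: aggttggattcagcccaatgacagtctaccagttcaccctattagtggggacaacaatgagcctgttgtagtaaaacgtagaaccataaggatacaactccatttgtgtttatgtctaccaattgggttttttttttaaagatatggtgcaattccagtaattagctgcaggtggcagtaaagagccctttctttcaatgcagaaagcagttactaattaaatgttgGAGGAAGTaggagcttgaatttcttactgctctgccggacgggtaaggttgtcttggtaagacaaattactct
Tlr9, chr9:106222348-106222647, plus strand, bare: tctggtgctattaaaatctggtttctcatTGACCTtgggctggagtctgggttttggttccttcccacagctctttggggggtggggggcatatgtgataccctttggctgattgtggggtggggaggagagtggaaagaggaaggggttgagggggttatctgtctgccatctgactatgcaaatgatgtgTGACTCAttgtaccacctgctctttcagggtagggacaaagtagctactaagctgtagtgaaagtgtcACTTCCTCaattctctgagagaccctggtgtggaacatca

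CpG content did not separate the acetylated promoters from the bare ones. The RefSeq windows of acetylated members held 11 CpG dinucleotides in Tlr2, 8 in Tlr5, 5 and 7 in the 2 windows of Tlr6, 10 in Tlr3, 5 in Tlr13 and 1 in Tlr8. Those of bare members held 0 in Tlr9 and 3 and 9 in the 2 windows of Tlr1. Over all 32851 RefSeq windows the median was 7 and the quartiles 3 and 20, and every window of the family lay below the upper quartile.

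The PU.1 letters, named for the macrophage lineage factor, were found in the windows of Tlr1 (from -23 bp relative to the RefSeq start) and Tlr9 (from 10 bp after it) and in no window of an acetylated member, against 3.20% of all windows. The other window of Tlr1 did not hold these letters, and Tlr4 and Tlr7, both acetylated, had no window to search. C/EBP letters were in a window of Tlr6, Tlr3, Tlr8 and Tlr13, all acetylated, against 10.8% of all windows. NF-κB letters were in 1 window, that of Tlr3, against 1.11%. AP-1 letters were in the Tlr9 window alone, against 7.81%. The ISRE, a sequence bound by interferon-responsive factors, was matched in Tlr6 and Tlr8, against 8.56%. The TATA box letters were matched in Tlr6 (from -180, -150 and -109 bp) and Tlr8 (from -91 and -89 bp), against 13.6%. The nuclear receptor element was matched in Tlr2, Tlr5 and Tlr9, against 16.3%, RUNX in Tlr6, against 16.8%, and the E-box in Tlr1, against 7.15%. The C/EBP, ISRE and RUNX matches of Tlr6 were in its other window, not printed above. The start of that window lies 881 bp from the nearest GENCODE TSS of Tlr6. The E-box of Tlr1 was also in a window not printed above. A match is a run of letters and not a measured site of binding.

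**Figure D1:**
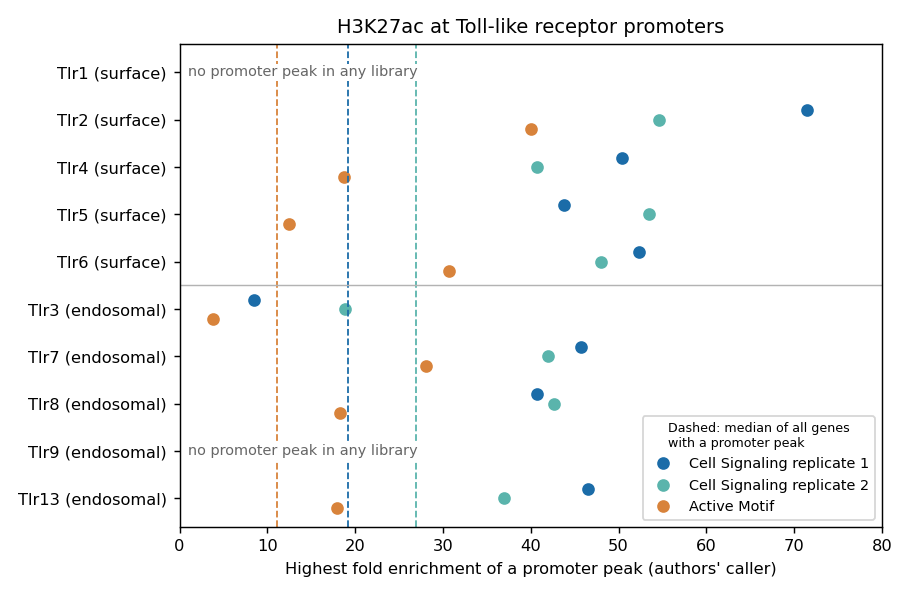
Highest fold enrichment of a peak within 1 kb of a TSS (x axis, ratio to input) for each Toll-like receptor gene (rows, surface above endosomal), 1 point per library, with the median of all genes with a promoter peak as a dashed line in the library's colour. Tlr2 lies furthest right in all 3 libraries (71.5, 54.6 and 40.0), Tlr3 lies left of the dashed line in each, and Tlr1 and Tlr9 have no point.

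Among surface receptors, Tlr2 carried the strongest promoter mark of the family. Tlr2 (chr3:83836272-83841767, minus strand), which pairs with TLR1 or TLR6 to bind lipoproteins, had promoter folds of 71.5 and 54.6 in the Cell Signaling replicates and 40.0 in Active Motif. Each of these values ranked above the 98th percentile of genes with a promoter peak in its library, at 99.5, 98.9 and 99.6. The promoter peak was 7899, 8420 and 7103 bp wide. All peaks together, the gene-body peak among them, covered 72.7%, 93.9% and 57.1% of the gene. The −log10 q of the promoter peak was 300.1, 179 and 127.

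Tlr6 (chr5:64952031-64960097, minus strand), the partner of TLR2 for diacylated lipopeptides, had folds of 52.3, 48.0 and 30.7 in replicate 1, replicate 2 and Active Motif, at percentiles 93.7, 94.0 and 96.5. Its 3 ranks lay close together. The peak was 3668, 3634 and 3210 bp wide, its summits lay 207 to 433 bp into the gene, and Tlr6 had no other peak in its body.

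Tlr1 (chr5:64924679-64933563, minus strand), the partner of TLR2 for triacylated lipopeptides, lies downstream of Tlr6 on the same strand and had neither a promoter nor a gene-body peak. The nearest peak began 25.3 kb from its 5′ end in replicate 1, 10.2 kb in replicate 2 and 25.5 kb in Active Motif. In replicate 1 and Active Motif that nearest peak was the Tlr6 promoter peak. The one at 10.2 kb was a peak of 4.32-fold past the 3′ end, in replicate 2 alone. Of the 2 genes for partners of TLR2, 1 was thus among the more strongly acetylated members and 1 was bare, at neighbouring positions of chromosome 5.

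Tlr4 (chr4:66827584-66930284, plus strand), the lipopolysaccharide receptor, had promoter folds of 50.4, 40.7 and 18.7, at percentiles 92.6, 82.4 and 79.8. It had more peaks inside the gene than any other member, with 21 in replicate 1, 19 in replicate 2 and 15 in Active Motif outside the promoter window. Merging overlapping peaks of the 3 libraries left 21 gene-body sites, of which 4 were in all 3 libraries, and no peak had its summit further than 30.5 kb into a gene that is 102.7 kb long. The strongest was intronic with its summit 24.8 kb into the gene, at folds of 40.0, 43.4 and 21.9, which were above the promoter folds in replicate 2 and Active Motif. The next were intronic at 15.5 kb (20.8, 24.9 and 14.5) and 29.4 kb (16.9, 19.0 and 9.38), and 1 lay 5.19 kb upstream (38.8, 33.9 and 12.1).

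Tlr5 (chr1:182954788-182976044, plus strand), the flagellin receptor, had promoter folds of 43.8 and 53.5 in the Cell Signaling replicates and 12.5 in Active Motif, at percentiles 87.9, 98.4 and 57.7. The 3 ranks were further apart than those of Tlr2 or Tlr6, and the outline of the peaks differed. In the Cell Signaling replicates 1 peak of 6944 and 7559 bp ran from the promoter into the gene, with its summit in an intron at 4.96 and 5.13 kb. In Active Motif the same stretch was split, with a promoter piece of 1762 bp at 12.5-fold and a gene-body peak at 24.7-fold. The highest signal of Tlr5 therefore lay about 5 kb inside the gene in every library, and its promoter fold in the Cell Signaling replicates is that of the intronic summit.

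Endosomal receptors covered a wider range of promoter folds. Tlr7 (chrX:167304929-167330558, minus strand), a receptor for single-stranded RNA, had folds of 45.7, 41.9 and 28.1 in replicate 1, replicate 2 and Active Motif, at percentiles 89.6, 84.8 and 94.5. Tlr8 (chrX:167242696-167264329, minus strand), its neighbour, which in humans also senses single-stranded RNA, had 40.7, 42.7 and 18.3, at percentiles 84.8, 86.1 and 78.8. Tlr13 (chrX:106143204-106160493, plus strand), which senses bacterial ribosomal RNA, had 46.5, 37.0 and 17.9, at percentiles 90.1, 74.6 and 77.7. These 3 X-linked genes had nearly the same folds within a library, 40.7 to 46.5 in replicate 1 and 37.0 to 42.7 in replicate 2, and a wider range of 17.9 to 28.1 in Active Motif.

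At Tlr13 the mark spread over much of the gene. The promoter peak of replicate 2 was 11381 bp wide, and peaks covered 60.5%, 64.5% and 44.3% of the gene in replicate 1, replicate 2 and Active Motif. In replicate 1 the same stretch was called as several peaks, of which the strongest gene-body peak reached 45.7-fold against 46.5-fold at the promoter. Tlr7 peaks covered 34.7%, 41.5% and 24.8% of its gene, and Tlr8 peaks 18.3%, 21.9% and 13.4%.

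Tlr3 (chr8:45395665-45411080, minus strand), the receptor for double-stranded RNA, had a weak promoter mark. Its folds were 8.46, 18.8 and 3.84, at percentiles 19.5, 29.96 and 0.888. Every one of these lay below the median of genes with a promoter peak, which was 19.2, 26.9 and 11.1. The Active Motif peak was 161 bp wide with a −log10 q of 2.10, close to the threshold of the caller, and Tlr3 had no other peak in the gene or its flanks in that library. The Cell Signaling replicates each had 1 flank peak, at a site 4.17 kb upstream (9.23- and 13.5-fold).

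Tlr9 (chr9:106222598-106226883, plus strand), the receptor for unmethylated CpG DNA, had no peak within the gene. The nearest lay 6.74 kb from its 5′ end in replicate 1, 7.45 kb in replicate 2 and 19.6 kb in Active Motif. Its flanks were not bare, with 22, 15 and 13 peaks, of which 7, 6 and 4 lay at promoters of other genes (Alas1, the first enzyme of haem synthesis, Ppm1m, a phosphatase, Twf2, an actin-binding protein, and, in replicate 2 alone, Wdr82, a subunit of a histone methyltransferase complex). The Wdr82 peak had its summit 51.6 kb from the 5′ end of Tlr9 and crossed the outer edge of the flank. Peaks of the other libraries beyond that edge were not assigned to Tlr9, so a library difference at Wdr82 cannot be read from this. The promoter folds of Alas1, whose 5′ end lies 26.1 kb from that of Tlr9, were 43.4, 20.4 and 24.2. Of the 6 flank sites of Tlr9 found in all 3 libraries, 0 had Tlr9 as the nearest TSS.

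**Figure D2:**
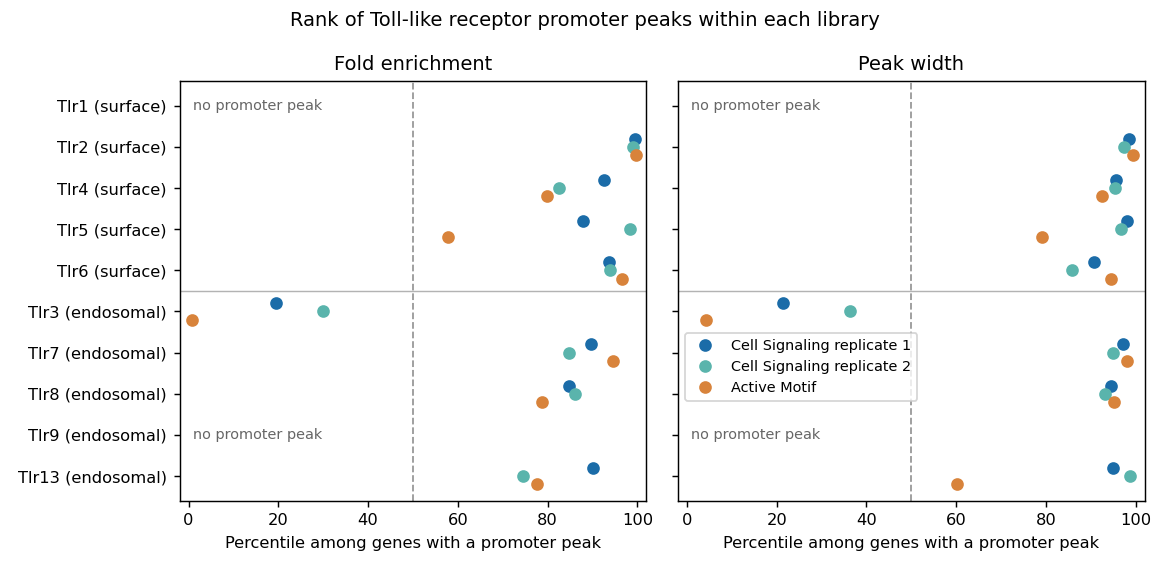
Percentile of each Toll-like receptor promoter among all genes with a promoter peak in the same library, by highest fold enrichment (left) and by width of the widest promoter peak (right), 1 point per library, surface rows above endosomal rows and a dashed line at the median. All points of Tlr2, Tlr4, Tlr5, Tlr6, Tlr7, Tlr8 and Tlr13 lie right of the median, from 57.7 upwards for fold, and all points of Tlr3 lie left of it.

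Set against all genes with a promoter peak, 7 of the 8 acetylated members lay above the median fold in every library. The median percentile of the 8 was 89.8 in Cell Signaling replicate 1, 85.5 in replicate 2 and 79.3 in Active Motif. Their median fold was 46.1, 42.3 and 18.5, against medians of 19.2, 26.9 and 11.1 for all genes with a promoter peak. Their promoter peaks were also wide, with median widths of 4923, 6449 and 2981 bp in the family against 1459, 1748 and 975 bp in all genes with a promoter peak. These are descriptions of 10 chosen genes, which are not replicates, and no test was run on them.

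Surface receptors had higher median promoter folds than endosomal receptors in every library, and the ranges overlapped in each. The medians of the 4 acetylated members of each class were 51.3 for surface against 43.2 for endosomal in Cell Signaling replicate 1, 50.7 against 39.5 in replicate 2 and 24.7 against 18.1 in Active Motif. The ranges were 43.8 to 71.5 against 8.46 to 46.5, 40.7 to 54.6 against 18.8 to 42.7, and 12.5 to 40.0 against 3.84 to 28.1, in the same order. Coverage of the gene bodies ran the other way, with 18.5% of the summed surface genes against 28.8% of the endosomal genes covered by peaks in replicate 1, 25.2% against 33.2% in replicate 2 and 13.3% against 20.3% in Active Motif. Single genes weighed on this difference. A comparison without Tlr4, the longest member, was added after the values were seen. Without Tlr4, 27.3%, 31.0% and 20.5% of the surface genes were covered against 28.8%, 33.2% and 20.3% of the endosomal genes. That is the opposite order in Active Motif. Tlr13 had the highest coverage of the endosomal genes, at 60.5%, 64.5% and 44.3%, and the endosomal share without it was not computed.

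Gene-body peaks outside the promoter window were found at Tlr2, Tlr4, Tlr5, Tlr7, Tlr8 and Tlr13 in each library (6 of 10), again with equal counts for the classes (3 of 5 each). At a q of 1e-05 the count was 5, 5 and 4, without Tlr8 in each library and without Tlr2 in Active Motif. The Tlr2 peaks of the Cell Signaling replicates only reached into the 3′ end of the gene, with their summits outside it. After overlapping peaks of the libraries were merged, a gene-body site in all 3 libraries was found at Tlr4 and Tlr7 alone. Merged sites that reached a promoter window were classed as promoter sites. At Tlr5 and Tlr13 the stretch that ran from the promoter into the gene fell in such a site in all 3 libraries. Among all protein-coding genes the share with a gene-body peak was 28% in Cell Signaling replicate 1, 27.1% in replicate 2 and 17.3% in Active Motif. Among the 8883 genes with a promoter peak in all 3 libraries it was 47.9%, 46.9% and 32.9%, and the corresponding count for the family was 6 of 8. Flank peaks were found at 10, 10 and 9 of 10 members, against 67.9%, 67.7% and 58.5% of all protein-coding genes, and Tlr3 in Active Motif was the exception.

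**Figure D3:**
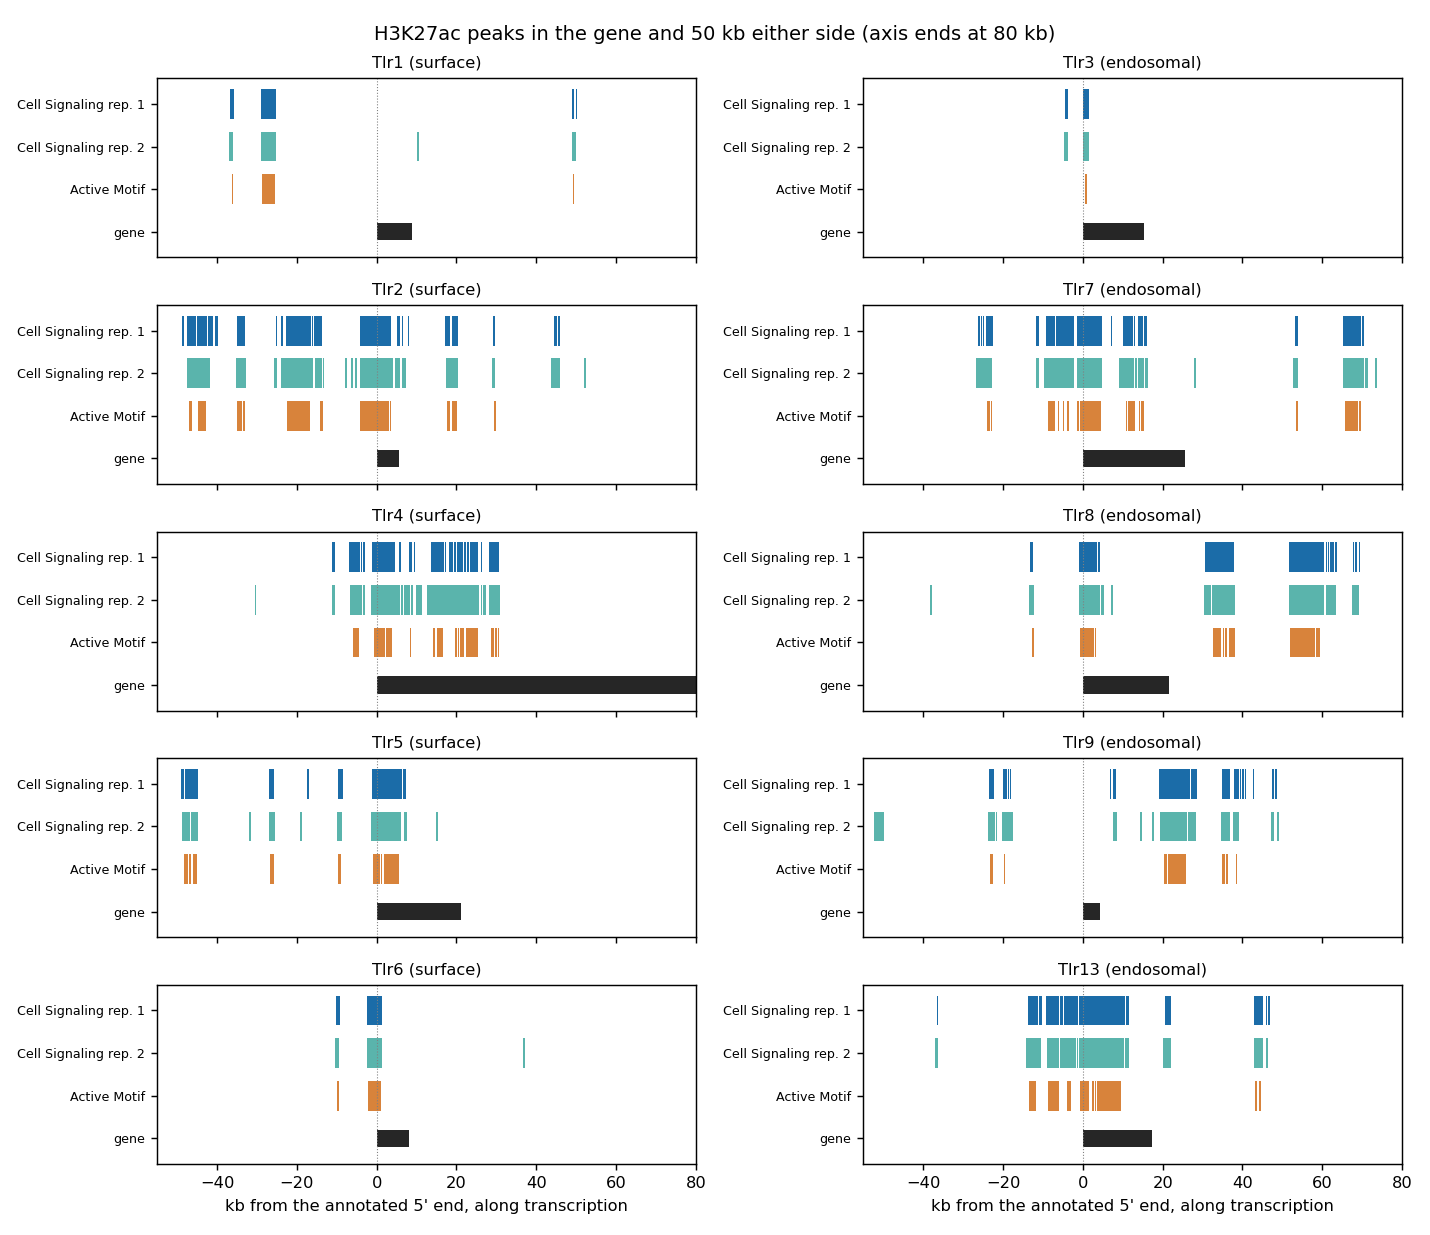
Peaks of each library (coloured bars, Cell Signaling replicate 1 at the top, then replicate 2 and Active Motif) by distance in kb from the annotated 5′ end along the direction of transcription, with the gene as a black bar, surface receptors in the left column and endosomal receptors in the right. Peaks narrower than 0.4 kb are drawn 0.4 kb wide, and the axis cuts the Tlr4 gene at 80 kb. Tlr1 and Tlr9 have no bar over the gene, Tlr3 a short one, and Tlr4 bars only over the first part of its long gene.

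The family took in 159 peaks of Cell Signaling replicate 1, 115 of replicate 2 and 113 of Active Motif. Of these, 10, 8 and 10 were promoter peaks, 38, 32 and 34 gene-body peaks and 111, 75 and 69 flank peaks. Number and covered length gave different orders of the libraries, since the peaks covered 154.8, 190.0 and 88.7 kb, with most in replicate 2. Median folds were 44.8, 42.3 and 18.1 for promoter peaks, against 4.997, 4.87 and 4.69 for gene-body peaks and 5.77, 9.09 and 5.54 for flank peaks.

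Merging the peaks that overlapped by 1 bp or more gave 134 sites, of which 43 (32.1%) were in all 3 libraries, against 31.0% of 58117 sites genome-wide. All 8 promoter sites were in all 3 libraries, which restates the count of members given earlier and is not a separate result. Of the other classes, 6 of 35 gene-body sites and 29 of 91 flank sites were in all 3. A merged site counted as promoter where any part of it reached a promoter window. Gene-body peaks joined to a wide promoter peak were therefore counted there, and the comparison of promoter sites with the other classes depends partly on this rule. Genome-wide shares were not computed by class of site, so it cannot be read as particular to the family. Counted by gene over the whole annotation, 8883 promoters were marked in every library, of 10414 in replicate 1, 10629 in replicate 2 and 8901 in Active Motif. Sites of a single library numbered 22 in replicate 1 (16.4% of the family's sites against 17.2% genome-wide), 42 in replicate 2 (31.3% against 31.8%) and 0 in Active Motif (against 0.253%). The median of a site's highest fold was 4.51 for sites of a single library and 24.9 for sites in all 3.

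**Figure D4:**
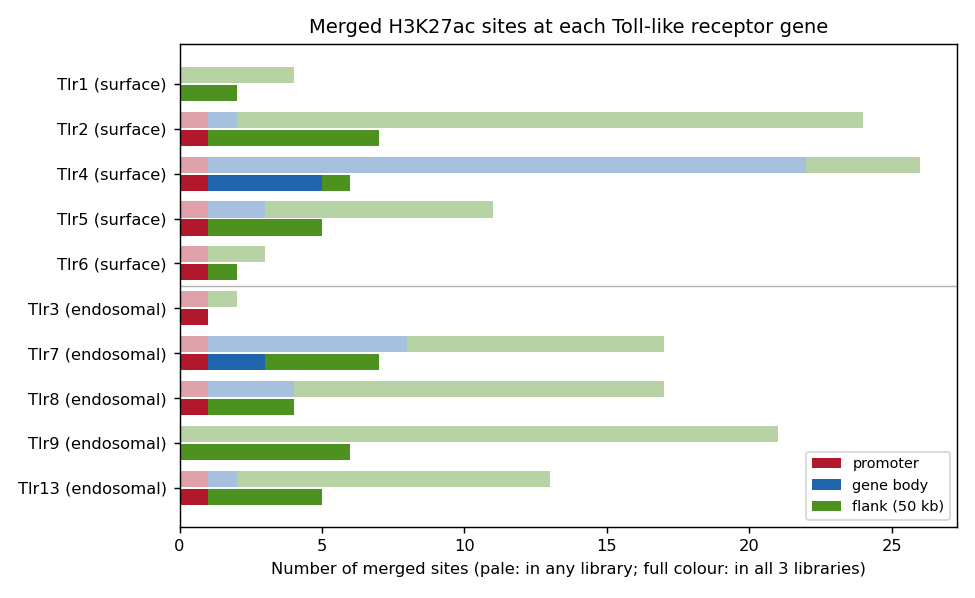
Number of merged sites (x axis) at each Toll-like receptor gene, surface rows above endosomal rows, in any library (pale bars) and in all 3 libraries (full colour), split into promoter, gene-body and flank sites. Each acetylated member has 1 promoter site, which is also in all 3 libraries, and the long pale bars shrink to 4 gene-body sites in Tlr4, 6 flank sites in Tlr2 and 6 flank sites in Tlr9.

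Peaks of the family were shared between libraries about as often as peaks in general. Of family peaks in replicate 1, 86.2% overlapped a peak of replicate 2 and 34.0% one of Active Motif, against 82.1% and 38.3% of all peaks. Of those in replicate 2, 64.3% overlapped a peak of replicate 1 and 38.3% one of Active Motif, against 61.9% and 37.6% of all. Of the Active Motif family peaks, 97.3% overlapped a peak of replicate 1 and 100% one of replicate 2, against 96.6% and 99.5% of all. The Active Motif peaks of the family were thus nearly a subset of those of the Cell Signaling libraries, as in the whole lists.

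Tlr2 had the strongest flank site that was not itself the promoter of a member. No other protein-coding gene has a TSS within 50 kb of Tlr2, and 7 merged sites there, the promoter among them, were in all 3 libraries. The site 21.03 kb upstream (chr3:83857688-83864902) reached folds of 56.1 and 47.3 in the Cell Signaling replicates and 26.1 in Active Motif. Further upstream lay sites at 33.9 kb (21.2, 29.6 and 8.82) and 42.9 kb (24.5, 36.4 and 15.8), and 1 lay 19.3 kb from the 5′ end on the downstream side (21.5, 28.7 and 6.54). The fold of the site at 21.03 kb lay below the promoter fold of Tlr2 alone in replicate 1, of Tlr2, Tlr5 and Tlr6 in replicate 2, and of Tlr2, Tlr6 and Tlr7 in Active Motif.

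At the other surface receptors, Tlr5 had a flank site 26.2 kb upstream at folds of 15.4, 27.3 and 6.13, its strongest in the Cell Signaling replicates. In Active Motif a site 9.16 kb upstream was higher (5.96, 9.21 and 6.89). Tlr6 had 1 flank site in all 3 libraries, at the promoter of its neighbour Fam114a1 (14.6, 21.02 and 5.54), which lies in the flank of Tlr1 as well. Tlr1 had a further weak site in all 3 libraries 49.3 kb downstream of its 5′ end (6.15, 12.0 and 5.92).

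Among endosomal receptors, Tlr13 had strong sites just upstream of its promoter, at 7.18 kb (44.2, 32.8 and 16.6), 3.40 kb (35.4, 31.3 and 17.0) and 12.4 kb (22.7, 16.4 and 7.25). Tlr7 had sites 7.95 kb upstream (33.1, 31.8 and 17.5) and 23.6 kb upstream (18.5, 22.5 and 11.5), the second inside Prps2, a gene of nucleotide synthesis. Tlr8 had 1 at 34.4 kb downstream of its 5′ end (31.2, 30.7 and 16.2), for which the nearest TSS was that of Tmsb4x, a gene for an actin-binding peptide. The mark does not say which gene such a site acts on.

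The strongest sites away from the 5′ ends of Tlr4 and Tlr5 are shown as 200 bases around the summit of Cell Signaling replicate 1, from the RefSeq genome (GRCm38.p6, plus strand), with the same motifs in capitals.
Tlr4, intron, 24.8 kb into the gene, chr4:66852234-66852433: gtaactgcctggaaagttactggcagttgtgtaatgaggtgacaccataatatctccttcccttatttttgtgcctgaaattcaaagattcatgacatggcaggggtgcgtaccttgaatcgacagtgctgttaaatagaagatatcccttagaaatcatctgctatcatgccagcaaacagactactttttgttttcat
Tlr5, intron, 4.96 kb into the gene, chr1:182959647-182959846: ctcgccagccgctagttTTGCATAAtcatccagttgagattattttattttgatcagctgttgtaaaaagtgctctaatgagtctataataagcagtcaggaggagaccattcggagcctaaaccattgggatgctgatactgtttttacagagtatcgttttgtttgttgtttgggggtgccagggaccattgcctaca

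The Tlr5 window held a C/EBP match, and the Tlr4 window none of the 9 motifs. Among 43194 windows of the same length, around the summits of replicate 1 peaks more than 1 kb from a TSS, 10.2% held the C/EBP letters. The windows held 2 CpG in Tlr4 and 4 in Tlr5.

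The other genes of the pathway were acetylated almost throughout. Of 45 genes for co-receptors, trafficking and processing, adaptors, kinases and ubiquitin ligases, transcription factors and negative regulators, 42 had a promoter peak in Cell Signaling replicate 1, 42 in replicate 2 and 41 in Active Motif, and 41 in all 3. The share of all protein-coding genes with a peak in all 3 was 40.8%, as above. These lists too were chosen with earlier results of these data known. The median fold of those with a peak in replicate 1 was 28.6, against 46.1 for the receptors and 19.2 for all genes with a promoter peak. The gap to the receptors was smaller elsewhere. In the same order the medians were 36.2, 42.3 and 26.9 in replicate 2 and 14.3, 18.5 and 11.1 in Active Motif.

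Of 6 co-receptors, 5 were acetylated in all 3 libraries. Their median fold was the highest of the pathway lists in the Cell Signaling replicates (46.9 and 45.2) but not in Active Motif, where it was 12.9, against 17.0 for negative regulators and 14.9 for trafficking genes. Cd180 (21.1 and 25.4 in the Cell Signaling replicates and 6.54 in Active Motif) and Ly86 (24.99, 35.5 and 7.85), which form a receptor related to TLR4, were the weakest of the 5. Cd14, which hands lipopolysaccharide to MD-2, had 60.7 and 46.9 in the Cell Signaling replicates. Cd36, a scavenger receptor that assists TLR2, had 73.4 and 51.7, and Ly96, whose product MD-2 holds lipopolysaccharide on TLR4, had 46.9 and 45.2. In Active Motif Cd14, Cd36 and Ly96 had 30.2, 43.0 and 12.9. Lbp, the plasma lipopolysaccharide-binding protein made mainly by liver, had no promoter peak. All 8 trafficking and processing genes were acetylated in all 3 libraries, among them Unc93b1, which carries endosomal members out of the endoplasmic reticulum (24.6 and 34.8 in the Cell Signaling replicates), Hsp90b1, the chaperone of most Toll-like receptors (65.7 and 49.8), and its co-chaperone Cnpy3 (28.8 and 24.8).

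Of 6 adaptors, 5 were acetylated in all 3 libraries, Myd88 at 35.8 and 54.2 in the Cell Signaling replicates, Tirap, which bridges MyD88 to TLR2 and TLR4, at 21.5 and 28.5, and Ticam1, the gene of TRIF, at 23.8 and 29.3. In Active Motif Myd88, Tirap and Ticam1 had 24.8, 8.10 and 10.8, against a median of 11.1 for all genes with a promoter peak. Sarm1, an adaptor best known from neurons, had no promoter peak. Of 14 kinase and ubiquitin ligase genes, 13 were in all 3 libraries, with the MyD88-associated kinase genes Irak1 at 22.3 and 36.4, Irak2 at 38.4 and 42.1 and Irak4 at 28.4 and 31.1. In Active Motif Irak1, Irak2 and Irak4 had 9.38, 23.0 and 5.88, of which only that of Irak2 lay above the median. Ikbke, a kinase gene of the interferon arm, was weak in the Cell Signaling replicates (4.23 and 4.81) and had no promoter peak in Active Motif. All 5 transcription factor genes were in all 3 libraries, with the NF-κB subunit genes Nfkb1 at 41.9 and 46.3 and Rela at 40.4 and 50.6. In Active Motif Nfkb1 and Rela had 19.2 and 20.6. Irf7, an interferon regulatory factor gene, had 10.4, 18.0 and 5.52 in replicate 1, replicate 2 and Active Motif. It alone of this list lay below the median of all genes with a promoter peak. Of 6 negative regulators, 5 were in all 3 libraries, with Irak3, which restrains the active IRAK kinases, at 20.4 and 34.4 and Tnfaip3, the gene of the ubiquitin editor A20, at 53.8 and 50.6. Sigirr, a decoy receptor gene, had none.

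**Figure D5:**
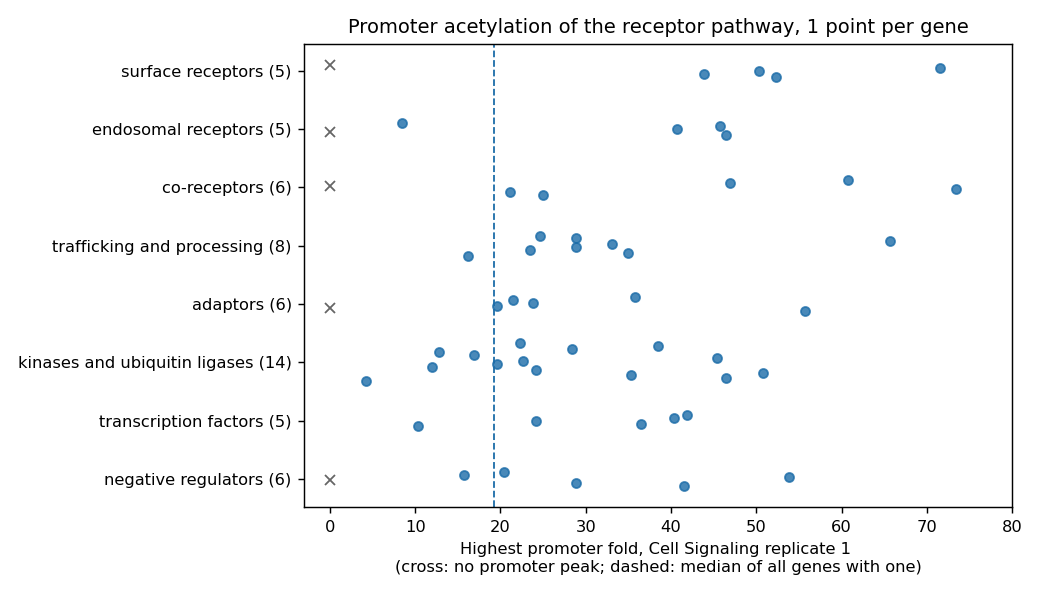
Highest promoter fold in Cell Signaling replicate 1 (x axis, ratio to input) for each gene of the receptor classes and the pathway lists (rows, number of genes in brackets), 1 point per gene, with crosses at 0 for genes with no promoter peak and a dashed line at the median of all genes with one (19.2). Surface receptors with a peak lie from 43.8 to 71.5, endosomal ones from 8.46 to 46.5, and each of Tlr1, Tlr9, Lbp, Sarm1 and Sigirr is a cross.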

How the data were processed

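The members and the pathway and marker lists were chosen with earlier results of these data known. The authors trimmed reads with Cutadapt, aligned them to mm10 with Bowtie2, removed duplicates with Picard, and called peaks in each library against input with MACS3 at a q of 0.05, so weaker signal is not in the lists. The deposited lists hold, for each peak, a score (the −log10 q scaled and truncated to a whole number), the fold enrichment as a ratio over input, the −log10 p and −log10 q, and the offset of the summit. Base calling for both Cell Signaling replicates used bcl2fastq 2.20.0.422, per the submitters' processing notes.

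Peaks were intersected with GENCODE M21 protein-coding genes in Python 3.11.15 (overlap of 1 bp or more). The strongest promoter peak gave a gene's fold, and a wide peak counts at each TSS it reaches. Figures used matplotlib 3.10.9. Peak assignment was tested on planted peaks. Named genes were all members, exceptions within each pathway list and examples among the first 4 genes of each list, and neighbours whose promoters held flank peaks. Prps2, Cd180, Ly86, Irf7, Marco, Car4, Clec9a, Xcr1, Csf3r and Ms4a1 were named after values were seen. No test was run, as there is 1 cell state and genes are not replicates. The inputs were not analysed here. The sequence at 1 flank site is not reported here.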

Additional observations from a re-analysis of the deposited data

How the results depend on the processing

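Tlr1 and Tlr9 had no promoter peak under any of the 6 settings tried for the promoter counts (windows of 500 bp and 3 kb, the annotated 5′ end only, a q of 1e-05, the strongest 36364 peaks of each library, and the summit in the window). Of the others, Tlr3 was lost in Active Motif at a q of 1e-05, leaving 7 members in all 3 libraries, and Tlr5 was lost in both Cell Signaling replicates where the summit had to lie in the window, also leaving 7. Using 1 Cell Signaling replicate in place of both left the count at 8. Members with a gene-body peak numbered 5, 5 and 4 in replicate 1, replicate 2 and Active Motif at a q of 1e-05, and 5 in each Cell Signaling replicate with the summit in the window or with equal numbers of peaks. Gene-body peaks of the family fell to 20 in replicate 1, 14 in replicate 2 and 13 in Active Motif at a q of 1e-05, and to 20 and 18 in the Cell Signaling replicates with equal numbers of peaks. At a q of 1e-05 Active Motif kept 39 flank peaks and 59 in all. Flanks of 25 kb held 64, 46 and 41 peaks in replicate 1, replicate 2 and Active Motif. Where 50% of both peaks had to overlap, sharing came to 28.3% of replicate 1 peaks in replicate 2 and 12.6% in Active Motif, 40% of replicate 2 peaks in replicate 1 and 9.57% in Active Motif, and 17.7% and 9.73% of Active Motif peaks in replicates 1 and 2. The cause of these changes was not tested. At a q of 1e-05 sharing was 92.5% of replicate 1 peaks in replicate 2, 78.2% of replicate 2 peaks in replicate 1 and 100% of Active Motif peaks in replicate 1. Sharing of all peaks was not computed under either of these settings, so the changes cannot be read as particular to the family. No paired analysis was possible because only 1 group has more than 1 library.

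The lists give no read depth, so the lack of a peak at Tlr1 and Tlr9 means that none passed the caller's threshold, not that the mark was absent.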

Other observations

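The other mouse Toll-like receptor genes, Tlr11 and Tlr12, whose products sense profilin in endosomes, were not among the members. Tlr11 had a promoter peak of 8.91-fold in Cell Signaling replicate 2 and none in replicate 1 or Active Motif, and Tlr12 had none in any.

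Tlr7 and Tlr8, which lie in tandem on the X chromosome, shared 1 flank site found in all 3 libraries (chrX:167276648-167277817), at folds of 11.9 in Cell Signaling replicate 1, 20.3 in replicate 2 and 4.69 in Active Motif. It lay between the genes, with its midpoint 12.9 kb from the nearest TSS, that of Tlr8.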
